A study of Mus musculus with 6 samples.

Results

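The replication-dependent histone genes encode the histones that package newly made DNA. They were taken as every row of the 6 expression tables whose symbol starts with Hist1h, Hist2h, Hist3h or Hist4h, which gave 68 of the 24346 genes listed. By their symbols these are 6 linker histone H1 genes, 18 H2A, 19 H2B, 12 H3 and 13 H4 genes, and 54 of them belong to the Hist1 cluster. The rule also takes Hist3h2bb-ps, a processed pseudogene in GENCODE M21, an annotation of the GRCm38 assembly (mm10), and testis genes such as Hist1h1t and Hist1h2ba.

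The libraries were made from mouse spleen cells sorted for CD11c, a surface marker of dendritic cells, on an autoMACS magnetic sorter. Treatment was with IL-33, an alarmin cytokine that signals through the receptor ST2, in 3 libraries and with PBS, a buffered salt solution, in the other 3. The labels used here give no strain, age, dose, time or route, nor whether replicates are different animals, so p-values reflect only how far these libraries vary, possibly for technical reasons.

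Core histones H2A, H2B, H3 and H4 form the spool around which DNA is wound, and linker histone H1 binds where the DNA enters and leaves it. Most core and linker histone genes sit in clusters and are transcribed in S phase, when DNA is copied. Their mRNAs are unusual in ending not in a poly(A) tail but in a short stem-loop, which the protein SLBP binds and behind which the U7 ribonucleoprotein directs the cut. In cells that have stopped dividing, some of these genes are also known to give longer, polyadenylated transcripts. The libraries came from a stranded mRNA kit that captures polyadenylated RNA, so transcripts that end at the stem-loop are expected to be captured poorly, and the values below need not follow the total histone mRNA of the cells.

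The stem-loop was looked up in the GENCODE M21 transcripts, since it marks the end of the mRNA form that has no poly(A) tail. A transcript was taken as holding it where its own strand has the 16-base stem-loop consensus, and 42 of 68 members did. The letters were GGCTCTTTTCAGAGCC in 26 members, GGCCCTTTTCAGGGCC in 7, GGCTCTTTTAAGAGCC in 6, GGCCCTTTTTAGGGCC in 2 and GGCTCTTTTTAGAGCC in 1. The 7 members below hold it and had a changed level, and their sequences are given 5′ to 3′ on the gene's strand, with the 16 bases of the stem-loop in capitals and 7 bases on each side.
Hist1h1c: tccaaaaGGCTCTTTTCAGAGCCaccactc
Hist1h1d: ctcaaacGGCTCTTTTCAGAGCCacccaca
Hist1h1e: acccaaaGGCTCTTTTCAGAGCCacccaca
Hist3h2a: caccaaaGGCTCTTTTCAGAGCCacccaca
Hist1h2bb: acccaaaGGCTCTTTTAAGAGCCacccaca
Hist1h2bg: acccaaaGGCTCTTTTCAGAGCCacccata
Hist1h4i: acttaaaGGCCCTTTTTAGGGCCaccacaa

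In GRCm38 these stretches lie at chr13:23739505-23739534 (plus strand) for Hist1h1c, chr13:23555780-23555809 (plus) for Hist1h1d and chr13:23621775-23621804 (minus) for Hist1h1e. Those of Hist3h2a, Hist1h2bb, Hist1h2bg and Hist1h4i lie at chr11:58955165-58955194 (plus), chr13:23747196-23747225 (plus), chr13:23571836-23571865 (plus) and chr13:22040959-22040988 (minus). The stem and loop letters were the same in the 3 linker histone genes, Hist3h2a and Hist1h2bg, so these letters did not set the members that rose apart from the one that fell. The letters were held by 19 of the 23 members that passed the expression filter (at least 1 FPKM in at least 3 libraries), and by 23 of the other 45. This cannot show whether the stem-loop goes with level, because some annotated transcripts stop near the end of the coding part. Those of Hist1h2bl and Hist1h2bn, without the letters, have 381 bases, beside 378 coding bases in the H2B genes compared below. How far the annotated transcript runs on past the stem-loop differed among the changed members. It ended 23 bases past it in Hist1h2bb and 155 bases past it in Hist1h2bg, but ran 330 bases further in Hist1h4i, 840 in Hist1h1c and 1643 in Hist3h2a. In Hist1h1e it ran 1153 bases and in Hist1h1d 4884 bases past the stem-loop, at mean levels of only 3.47 and 2.35 FPKM. The transcripts of Hist1h1c and Hist3h2a also hold AATAAA, the usual poly(A) signal, in their last 50 bases, as did 11 of 68 members (16.2%) and 40.5% of the 58797 protein-coding transcripts of the annotation. The letters of the stem-loop were not in the annotated transcript of Hist1h2bc, which has 2 exons on the plus strand at chr13:23684199-23692908, whereas 66 of 68 members have 1 exon.

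Levels went with this feature, as a description over genes that share libraries and, in part, sequence. Members also differ in how much of their sequence occurs in other genes, as given further below. The part of that in the levels was not separated from the part of the extension. The 21 members annotated for more than 100 bases past the stem-loop had a median level of 1.49 FPKM over the 6 libraries, with a highest of 117 FPKM. The 21 that end within 100 bases had a median of 0.368 FPKM and a highest of 2.39 FPKM. A long extension did not ensure a high level, since 8 of the members that run further did not pass the expression filter. Hist2h3c1, at 1162 bases, was listed at 0. FPKM divide fragments by the length of the authors' transcript model and by a scaling factor of the library. By the steps described below, 1 fragment was worth 0.12 FPKM in Hist1h1d (7425 GENCODE M21 bases) and 0.1269 in Hist1h1a (741). It was worth 0.2443 FPKM in Hist1h2ac (2482 bases) and 0.2295 in Hist1h2ab (473), all on the scale of PBS replicate 1. For these genes the worth of a fragment did not follow the GENCODE M21 lengths, so the extensions need not have been counted. Levels are compared between genes with that limit. Of the 6 members at a mean of 5 FPKM or more, 5 are annotated past 100 bases and the other is the spliced Hist1h2bc. Which annotation the authors used is not given in the sources used here, and the steps could not be read for Hist1h1c, Hist3h2a or Hist1h2bc.

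**Figure D1:**
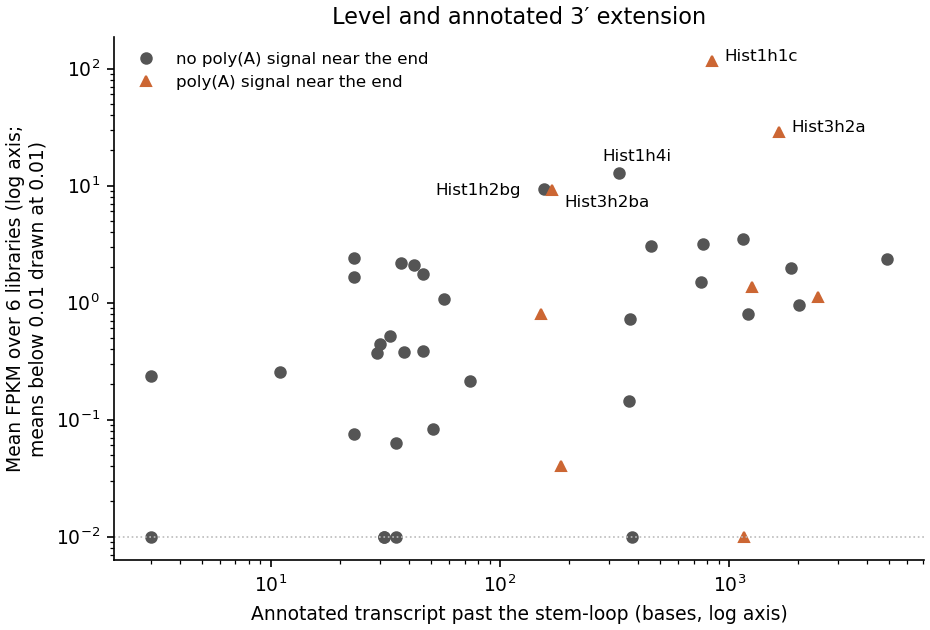
Mean FPKM over the 6 libraries (log axis) of each member that holds the stem-loop, against the bases of annotated transcript that follow it (log axis), with triangles for transcripts that hold the poly(A) signal in their last 50 bases. The members annotated to end within 100 bases stay at or below 2.39 FPKM, and those that run further reach 117 FPKM (Hist1h1c). The bases are those of GENCODE M21, which need not be the models behind the FPKM.

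Most members were barely detected in these cells. In total 10 of 68 were listed at 0 in all 6 libraries, 35 were above 0 but below the expression filter, and 23 were tested. Values of most low members were whole multiples of what 1 sequenced fragment was worth in that library, to within 0.05 of a fragment. This held for 43 of the 48 members that were above 0 in at least 3 libraries. One fragment was worth a median of 0.262 FPKM on the scale of PBS replicate 1. By these steps the scaling factors of the libraries ran from 0.946 to 1.22 of that of PBS replicate 1, with the groups overlapping. These factors need not equal the depth in mapped fragments. Fragment numbers given below are the fewest that fit the steps, since any multiple of them would fit as well.

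Beside the fit, a few facts on the libraries bear on every value. In total 11518 genes were tested with limma on log2(FPKM + 1), with p-values adjusted over all of them by Benjamini-Hochberg and a threshold of 0.05. Of all tested genes 28.0% were higher with IL-33 and 25.5% lower, and the 3 IL-33 libraries lay above the 3 PBS libraries for 32.7% and below them for 30.9%. The summed FPKM of all genes was 778391 to 841884 with IL-33 and 614522 to 641412 with PBS. After rescaling to equal totals the median over all tested genes was -0.29 in place of 0.01, so that changes under that scaling are best read against -0.29. Of 16 dendritic cell markers 5 were higher and 7 lower, with a median change of -0.21. Itgax (CD11c) stood at means of 283 FPKM (IL-33) and 241 FPKM (PBS), Flt3 at 74.8 and 114 FPKM, Zbtb46 at 23.5 and 36.9 FPKM, and Siglech, of plasmacytoid dendritic cells, at 12.4 and 51.1 FPKM. The antigen presentation genes of this list had the higher mean with IL-33. H2-Aa stood at 9275 and 6370 FPKM, H2-Ab1 at 7511 and 4643, H2-Eb1 at 4328 and 3106, and Cd74 at 13977 and 9741.

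The IL-33 libraries held more transcript of a few abundant histone genes. Hist1h2bc rose 3.47-fold, Hist1h1c 1.81-fold, Hist1h4i 1.77-fold and Hist3h2a 1.35-fold as ratios of group means, while Hist1h2bg fell to 0.62 of its PBS level. In the fit of all genes 7 of the 23 tested members were higher (30.4%, beside 28.0% of all tested genes) and 1 was lower (4.35%, beside 25.5%), and 15 did not pass the threshold. The share of members that rose was thus close to that of all genes. The median change of tested members was 0.30, beside 0.01 for all genes, and 0.01 beside -0.29 with equal totals. This median was 0.17 without IL-33 replicate 3 and 0.19 with no filter, and 0.60 over the 6 members left by a filter of 5 FPKM. Of the tested members 14 were at 1 FPKM or more in every library, 3 in all IL-33 but not all PBS libraries, and 1 in all PBS but not all IL-33 libraries. The 3 were Hist1h1d, Hist1h2be and Hist1h3d, of which only Hist1h1d was called higher.

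**Figure D2:**
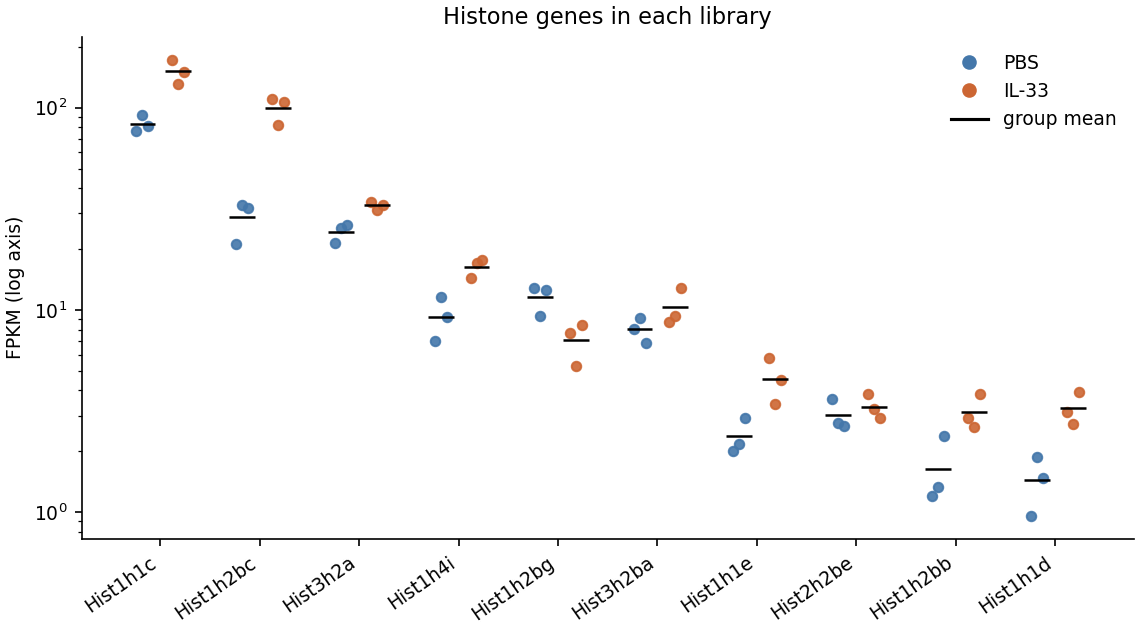
FPKM (log axis) of the 10 histone genes that were changed or most abundant, in each of the 3 PBS and 3 IL-33 libraries, with lines at the group means. Hist1h2bc shows the widest gap between groups (21.1 to 32.9 with PBS, 82.2 to 110 FPKM with IL-33), Hist1h2bg lies lower with IL-33, and the groups overlap for Hist3h2ba and Hist2h2be.

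Linker histone genes rose together where they could be tested. Hist1h1c encodes H1.2, a linker histone that is also abundant in cells that do not divide. Its levels were 173, 130 and 150 FPKM with IL-33 (replicates 1, 2 and 3, the order used throughout) and 76.6, 91.5 and 81.4 FPKM with PBS. The groups did not overlap, and the log2 change was 0.85 (SE 0.12, limma adjusted p = 0.00134). Hist1h1c is a 1-exon gene at chr13:23738808-23740367 on the plus strand, and 8.5% of the 50-base words of its transcript also occur in other annotated genes, the lowest share but 1 among the 8 changed members.

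Hist1h1d, the gene of H1.3, was at 3.13, 2.73 and 3.93 FPKM with IL-33 and 0.960, 1.87 and 1.48 FPKM with PBS. These values correspond to 28, 23 and 31 fragments against 8, 17 and 15, and the log2 change was 0.82 (SE 0.17, limma adjusted p = 0.00607). PBS replicate 1 was below 1 FPKM, so Hist1h1d met the filter level in all IL-33 but not all PBS libraries. Hist1h1e, the gene of H1.4, stood at 5.76, 3.41 and 4.52 FPKM with IL-33, or 52, 29 and 36 fragments. With PBS it stood at 2.02, 2.18 and 2.93 FPKM, or 17, 20 and 30 fragments (log2 change 0.71, SE 0.17, limma adjusted p = 0.0121). For both genes the groups did not overlap, though for Hist1h1e IL-33 replicate 2 came near to PBS replicate 3. Exons of Hist1h1e overlap those of Hist1h2be and of Gm11398 on the same strand in the annotation, so that reads there could be counted for either. The calls of all 3 linker genes held in each alternative that tested them (the filter of 5 FPKM left out Hist1h1d and Hist1h1e), with log2 changes of 0.51 to 0.95 for Hist1h1c, 0.59 to 1.16 for Hist1h1d and 0.45 to 0.90 for Hist1h1e.

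The other 3 linker genes were below the filter. Hist1h1a (H1.1) was at 1.06, 1.13 and 0.939 FPKM with IL-33 and 0.254, 0.350 and 0.835 FPKM with PBS, which is 9, 9 and 7 against 2, 3 and 8 fragments. Hist1h1b (H1.5) gave 7, 10 and 6 fragments with IL-33 and 2, 3 and 12 with PBS, so that PBS replicate 3 held the most. Both are genes known from dividing cells, and in both the libraries of the groups lay close together or overlapped. Hist1h1t, the testis linker histone, was above 0 only in IL-33 replicate 1 (0.241 FPKM). Hist1h1c made up 92.7% to 95.7% of the summed FPKM of the H1 class in every library.

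The 3 tested linker genes share a promoter element, shown here because they moved together. Promoter sequences from RefSeq (GRCm38.p6) were matched for 61 members, giving 62 promoters of 250 bases before to 50 after the start. On either strand, AAACACA, the H1 box, was in 5 of 6 H1 promoters, in 7.2% of all 32851 promoters and in 2 each of the 17 H2A and 17 H2B promoters. CCAAT was in every promoter of the H1, H2A, H2B and H3 members and in 3 of 12 of H4, beside 37.4% of all promoters. The TATA box, TATAAA, was in 35 of 62 member promoters and 13.6% of all. The 200 bases before the start are printed 5′ to 3′ on the gene's strand, with the H1 box, the CCAAT box and the TATA box on either strand in capitals.
Hist1h1c: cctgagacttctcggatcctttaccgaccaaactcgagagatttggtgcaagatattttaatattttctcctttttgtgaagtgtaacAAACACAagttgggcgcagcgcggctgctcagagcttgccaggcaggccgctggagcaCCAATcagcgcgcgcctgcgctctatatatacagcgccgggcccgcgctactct
Hist1h1d: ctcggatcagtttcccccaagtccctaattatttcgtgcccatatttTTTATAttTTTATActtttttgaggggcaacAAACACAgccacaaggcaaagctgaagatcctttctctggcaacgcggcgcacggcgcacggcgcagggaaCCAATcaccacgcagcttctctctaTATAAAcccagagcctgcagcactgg
Hist1h1e: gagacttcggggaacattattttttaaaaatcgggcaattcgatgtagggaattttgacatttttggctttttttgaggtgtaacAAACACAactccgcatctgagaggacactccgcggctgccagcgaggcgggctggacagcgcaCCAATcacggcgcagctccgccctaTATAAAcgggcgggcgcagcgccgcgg

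These windows lie at chr13:23738607-23738806 (plus strand), chr13:23554832-23555031 (plus) and chr13:23622559-23622758 (minus). The H1 box begins 112, 122 and 115 bases before the start in Hist1h1c, Hist1h1d and Hist1h1e, and CCAAT begins 54, 51 and 52 bases before it. A match to these letters is a description of the sequence and not a measured binding site.

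The H2B genes differed most among themselves. Hist1h2bc showed the largest change of any tested member. With IL-33 its level was 110, 82.2 and 106 FPKM, and with PBS 21.1, 32.9 and 32.0 FPKM (log2 change 1.77, SE 0.18, limma adjusted p = 0.000559). The lowest IL-33 library was well above the highest PBS library, and the change stayed between 1.44 and 1.90 over the alternatives. Hist1h2bc alone made up 73.6% to 75.5% of the summed H2B level with IL-33 and 38.9% to 52.8% with PBS.

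Hist1h2bg went the other way. It was at 7.70, 5.27 and 8.45 FPKM with IL-33 and 12.8, 9.29 and 12.5 FPKM with PBS, or 31, 20 and 30 fragments against 48, 38 and 57. Every IL-33 library lay below every PBS library, with a log2 change of -0.63 (SE 0.18, limma adjusted p = 0.0206). Leaving out PBS replicate 1 gave -0.55 and leaving out PBS replicate 3 gave -0.57, with limma adjusted p of 0.0632 and 0.0545, so the call was lost in both cases; over all alternatives that p ran from 0.0030 to 0.0632. The ratio of Hist1h2bc to Hist1h2bg FPKM was 14.3, 15.6 and 12.6 with IL-33 and 1.65, 3.54 and 2.57 with PBS.

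Both genes encode the same protein. The translated coding sequences of Hist1h2bc, Hist1h2be and Hist1h2bg were identical over their whole length. The coding bases of Hist1h2bc matched those of Hist1h2bg at 98.7% and those of Hist1h2be at 98.4%. Because of this likeness, reads from the coding part could be assigned to the wrong copy. Of the 50-base words, 30.6% of those of Hist1h2bc and 49.7% of those of Hist1h2bg occur in other annotated genes. For Hist1h2bg these were 14 genes, all of them members. For Hist1h2bc they were 220 genes, of which 14 are members, so its share does not come from histone copies alone. Summed over the 3 genes, the level was 121, 90.8 and 116 FPKM with IL-33 and 36.2, 42.9 and 45.2 FPKM with PBS, without overlap.

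Hist1h2be, the third copy, was at 3.03, 3.28 and 1.69 FPKM with IL-33 and 2.34, 0.762 and 0.683 FPKM with PBS. Its groups overlapped and it did not pass (log2 change 0.74, SE 0.29, limma adjusted p = 0.0672). It passed with cyclic loess (0.88), with the replicate number as a block (0.74), and without IL-33 replicate 3 (0.95) or PBS replicate 1 (1.06). Hist1h2bb encodes an H2B that differs from the former at 4 residues. It rose narrowly, from 1.21, 1.33 and 2.39 FPKM with PBS to 2.93, 2.63 and 3.83 FPKM with IL-33, or from 5, 6 and 12 to 13, 11 and 15 fragments (log2 change 0.66, SE 0.19, limma adjusted p = 0.0212). The call of Hist1h2bb was lost without IL-33 replicates 1 (0.69) or 3 (0.54), without PBS replicates 1 (0.55) or 2 (0.59) and with equal totals (0.43), with adjusted p from 0.0046 to 0.0825 over the alternatives.

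The promoters of the H2B gene that fell and of Hist1h2bb hold the same kinds of element. ATTTGCAT, the octamer, was on either strand in 7 of 17 H2B and 7 of 17 H2A promoters, in none of the H1, H3 or H4 promoters and in 1.7% of all promoters. It begins 59 bases before the start in Hist1h2bg and 90 before it in Hist1h2bb. The 200 bases before the start are shown with the octamer, the CCAAT box and the TATA box on either strand in capitals.
Hist1h2bg: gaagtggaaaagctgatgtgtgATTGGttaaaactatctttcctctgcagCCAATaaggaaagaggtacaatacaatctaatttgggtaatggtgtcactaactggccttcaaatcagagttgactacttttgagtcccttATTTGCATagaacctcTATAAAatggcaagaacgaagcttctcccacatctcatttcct
Hist1h2bb: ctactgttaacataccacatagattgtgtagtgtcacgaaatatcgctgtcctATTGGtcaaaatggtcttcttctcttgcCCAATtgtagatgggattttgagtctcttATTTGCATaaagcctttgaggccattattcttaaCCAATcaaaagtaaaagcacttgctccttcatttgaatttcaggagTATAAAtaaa

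They lie at chr13:23571200-23571399 and chr13:23746534-23746733, both on the plus strand. Each holds an octamer followed by TATAAA, although the genes moved in opposite directions.

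**Figure D3:**
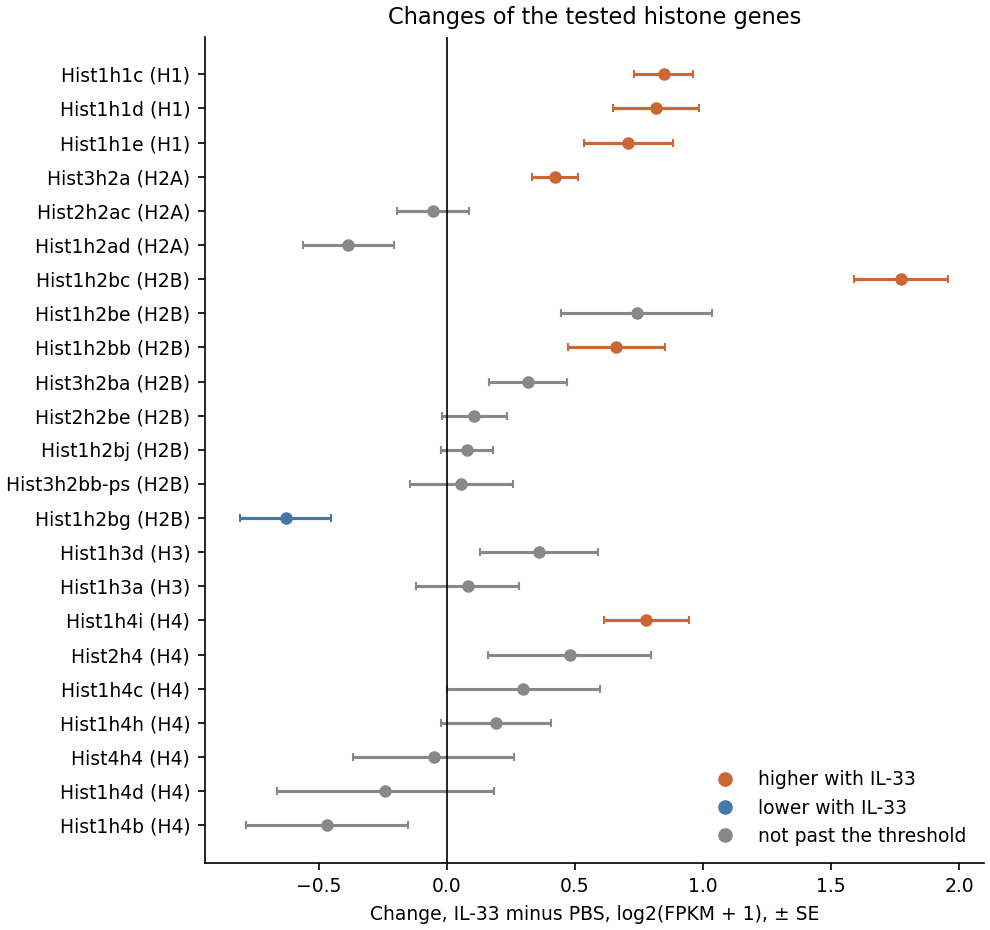
Change of each of the 23 tested histone genes on the log2(FPKM + 1) scale, IL-33 minus PBS, with bars of 1 SE, ordered by class. Hist1h2bc stands out at 1.77, the 3 H1 genes lie between 0.71 and 0.85, and Hist1h2bg at -0.63 is the one called lower.

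Other H2B genes did not pass. Hist3h2ba was at 8.76, 9.30 and 12.8 FPKM with IL-33 and 8.05, 9.12 and 6.84 FPKM with PBS, or 35, 35 and 45 against 30, 37 and 31 fragments. The lowest IL-33 library was below the highest PBS library (log2 change 0.32, SE 0.15, limma adjusted p = 0.116), and with equal totals the change was 0.01. Hist2h2be stood at 3.82, 3.22 and 2.93 FPKM with IL-33 and 3.65, 2.75 and 2.67 FPKM with PBS, which overlapped (log2 change 0.11, SE 0.13, limma adjusted p = 0.507, and -0.15 with equal totals). Hist1h2bj gave 6, 5 and 6 fragments with IL-33 and 5, 6 and 6 with PBS.

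Among the H2A genes Hist3h2a was the only one of the 3 tested to pass. It was at 34.3, 31.1 and 33.2 FPKM with IL-33 and 21.4, 25.5 and 26.2 FPKM with PBS, without overlap (log2 change 0.42, SE 0.09, limma adjusted p = 0.00711). With equal totals the change was 0.09 (adjusted p = 0.346), where the median of all tested genes was -0.29. Its annotated exons, at chr11:58954685-58956830 on the plus strand, overlap exons of Trim17 on the same strand, but Trim17 itself was at 0.185 FPKM or less in every library. Hist1h2ad went from 10, 14 and 16 fragments with PBS to 7, 12 and 6 with IL-33 and did not pass (log2 change -0.39, limma adjusted p = 0.102), and it did pass as lower with equal totals (-0.61) and without IL-33 replicate 2 (-0.58).

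H4 genes all encode 1 protein, since the 13 translated coding sequences were identical. Hist1h4i held the most transcript, at 14.3, 17.0 and 17.7 FPKM with IL-33 and 6.99, 11.6 and 9.20 FPKM with PBS. These are 44, 49 and 48 against 20, 36 and 32 fragments, every IL-33 library was higher, and the log2 change was 0.78 (SE 0.16, limma adjusted p = 0.00667). The other 6 tested H4 genes did not pass, and their changes ran from -0.47 (Hist1h4b) to 0.48 (Hist2h4). Without PBS replicate 1, Hist1h4b was called lower (-0.81, limma adjusted p = 0.0264) and Hist1h2bg was not. Hist1h4d shows how far single libraries varied at this level, with 2, 12 and 7 fragments with IL-33 and 5, 11 and 10 with PBS. H3 genes were the least abundant class. The 2 tested, Hist1h3a (0.08, limma adjusted p = 0.757) and Hist1h3d (0.36, limma adjusted p = 0.223), did not pass, and the groups overlapped for both.

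Summed over a class, levels followed the most abundant member. The summed FPKM of the 6 H1 genes was 161 ± 22.5 (SD, n = 3) with IL-33 and 88.0 ± 8.09 with PBS. The 19 H2B genes summed to 146, 112 and 144 FPKM with IL-33 and 54.3, 62.3 and 65.3 FPKM with PBS. For the 18 H2A genes the sums were 39.7 ± 1.69 and 31.6 ± 3.49 FPKM. The 13 H4 genes summed to 31.2 ± 5.09 and 21.3 ± 3.33 FPKM, and the 12 H3 genes to 6.58 ± 1.59 and 4.64 ± 1.29 FPKM. The libraries of the groups did not overlap for the sums of H1, H2A, H2B and H4 and did for H3. The summed FPKM of all genes did not overlap between the groups either. With equal totals the IL-33 sum of H2A was 0.99 times that of PBS, and the sums of H2B and H1 were 1.74 and 1.44 times. Those of H4 and H3 were then 1.17 and 1.12 times, and overlap of the class sums was not examined under that scaling.

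**Figure D4:**
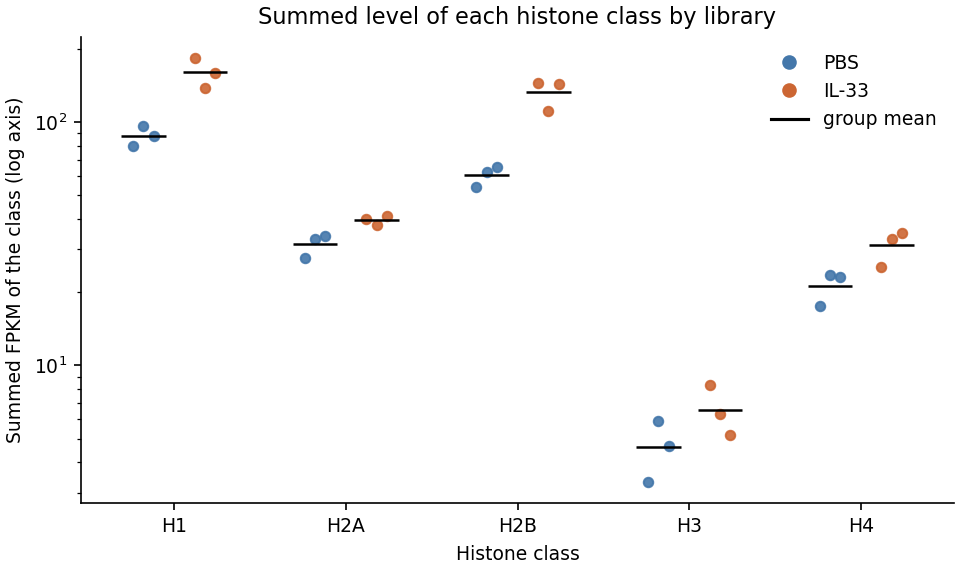
Summed FPKM of each histone class (log axis) in the 3 PBS and 3 IL-33 libraries, with lines at the group means. H1 and H2B are the classes with the highest sums and the widest gaps between groups, and the H3 sums, from 3.33 to 8.29 FPKM, overlap between groups.

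All 68 members together summed to 403, 328 and 384 FPKM with IL-33 and 183, 221 and 215 FPKM with PBS, a fold of 1.80 (1.42 with equal totals). Hist1h1c and Hist1h2bc made up 64.8% to 70.1% of this sum with IL-33 and 52.8% to 56.3% with PBS. Without the pair the sums were 121, 115 and 129 FPKM with IL-33 and 85.1, 96.5 and 102 FPKM with PBS. The summed FPKM of all genes was itself 1.27 times as high with IL-33. The sums without the pair were not rescaled to equal totals, so a rise of the remaining members beyond that of all genes was not tested. The 45 members that were not tested added 13.8 to 17.6 FPKM to an IL-33 library and 7.81 to 14.4 FPKM to a PBS library.

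By position, 6 of the 7 members that rose and the one that fell lie in the Hist1 cluster on chromosome 13, of which 16 of 54 members were tested. Those 16 are most of the 23 tested members. Of them 37.5% were higher and 6.25% lower, beside 28.0% and 25.5% of all tested genes. The 3 tested Hist2 genes did not pass, 1 of 3 Hist3 genes on chromosome 11 did (Hist3h2a), and Hist4h4 did not (log2 change -0.05, limma adjusted p = 0.903).

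Untested members rest on very few fragments. For 25 of them the steps could be read, with a median of 9 fragments over all 6 libraries, a range of 4 to 69, and 14 members at 10 or fewer. The 69 are those of Hist1h2bp (469 annotated bases), where 1 fragment was fitted at 0.0353 FPKM. For Hist1h2bj (463 bases) it was 0.308 FPKM, so the reading for Hist1h2bp is doubtful. Of the 35 members above 0 and below the filter, 26 had the higher mean with IL-33 and 9 with PBS. Without a filter 4 of these were called higher by limma, and their fragments show what such a call rests on. Hist1h4k had 2, 2 and 2 fragments with IL-33 and 0, 1 and 0 with PBS, and Hist1h4f 1, 2 and 3 against 0, 0 and 1. Hist1h3c had 1, 1 and 3 fragments with IL-33 and was listed at 0 in each PBS library, and Hist1h1a is described above. The highest single value among untested members was that of Hist2h2bb in IL-33 replicate 1 (2.23 FPKM), where the other 5 libraries held 0.220 to 1.01 FPKM.

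The 10 members listed at 0 throughout were Hist1h2aa, Hist1h2ao, Hist1h2ap, Hist1h2ba, Hist1h2bq, Hist1h2br, Hist1h4j, Hist1h4n, Hist2h3c1 and Hist2h3c2. A median of 89.4% of the 50-base words of their transcripts occur in other annotated genes, compared with 69.0% for members below the filter and 30.0% for tested members. Over all 68 members more than 50% of the words were shared in 35 cases and all of them in 7. Members differed widely in this, from 0% for Hist2h2be and 1.0% for Hist2h4 to 75.9% for Hist1h4b among those tested. The level of a member that shares most of its words is uncertain. Whether reads shared between copies were dropped was not tested.

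Genes that act on histones or on the cell cycle were listed from textbook knowledge to set beside the members. Of 32 DNA replication and S phase genes 15 rose (46.9%, beside 28.0% higher of all genes) and none fell by limma, also at an unadjusted p under 0.05, with a median change of 0.33. Tk1, which makes thymidine phosphate for DNA synthesis, rose from 19.9 ± 4.55 to 37.8 ± 4.39 FPKM (log2 change 0.91, SE 0.16). E2f1, a transcription factor of S phase entry, rose by 0.63 (SE 0.08), and Gins2 and Gins4, parts of the replicative helicase, by 0.72 and 0.39 (Gins4 not with equal totals, 0.07). Pcna, the sliding clamp of DNA polymerase, rose by 0.44 (limma adjusted p = 0.0158) as deposited but not with equal totals (0.10), quantile normalization (0.05) or cyclic loess (0.05). The S phase counts became 3 higher and 5 lower with equal totals (median 0.01), and without IL-33 replicate 2 or PBS replicate 2 there were 10 rises.

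Of 17 genes of mitosis and G2 phase 12 rose (70.6%, beside 28.0% higher of all genes). None fell by limma (beside 25.5% lower of all genes), also at an unadjusted p under 0.05. The median change was 0.59 (0.29 with equal totals, which left 4 higher). Aurkb, a mitotic kinase that phosphorylates histone H3, rose from 9.14 ± 2.41 to 19.5 ± 1.87 FPKM (log2 change 1.04, SE 0.17). Ube2c, Ccnb1 and Aurka rose by 0.91, 0.81 and 0.68 (Aurka not with equal totals, 0.37). Mki67, a marker of cycling cells, stood at 12.9, 18.3 and 18.8 FPKM with IL-33 and 16.5, 13.9 and 21.0 FPKM with PBS and did not pass (log2 change -0.04, limma adjusted p = 0.884). Leaving out IL-33 replicate 2 left 6 rises in this list, and leaving out IL-33 replicate 3 or PBS replicates 1 or 2 left 7.

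Histone genes outside the replication-dependent clusters are mostly transcribed in all phases into polyadenylated mRNA (H2afx is known to give both a stem-loop and a polyadenylated form). They rose in 7 of 9 tested cases (77.8%, beside 28.0% higher of all genes). None fell by limma (beside 25.5% lower of all genes), also at an unadjusted p under 0.05. The median was 0.61, but 0.28 under equal totals, which gave 4 rises and 1 fall. H2afz, the H2A variant of promoters, rose from 405 ± 57.2 to 676 ± 16.7 FPKM (log2 change 0.75, SE 0.11). H1f0, the linker histone of cells that have left the cycle, rose from 21.1 ± 1.72 to 39.7 ± 1.30 FPKM (0.88, SE 0.08). Cenpa, the H3 variant of centromeres, and H2afv rose by 0.87 and 0.68. Each of these 4 was also called higher in every alternative that was run. H2afz alone thus stood above the sum of all 68 replication-dependent members in every library of these poly(A)-captured data.

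The genes that make and process histone mRNA were split, with 8 of 23 tested higher and 6 lower (34.8% and 26.1%, beside 28.0% and 25.5% of all genes; median 0.07, but -0.24 with equal totals, -0.08 with quantile normalization and -0.05 with cyclic loess). Npat, the coactivator that cyclin E and CDK2 switch on at histone promoters, fell from 3.73, 4.10 and 3.74 to 2.41, 2.47 and 2.87 FPKM (log2 change -0.44, SE 0.09, limma adjusted p = 0.00633). Casp8ap2 (FLASH), which recruits the U7 machinery, fell from 8.26 ± 0.32 to 5.32 ± 0.70 FPKM (-0.56, SE 0.10). Slbp, the stem-loop binding protein gene, was at 37.6, 41.9 and 34.9 FPKM with IL-33 and 32.1, 34.2 and 40.3 FPKM with PBS and did not pass (0.10, limma adjusted p = 0.445). Snrpe, Snrpf and Snrpg, whose products the U7 particle shares with the spliceosome, rose by 0.47, 0.38 and 0.39 as deposited, but these calls were lost with equal totals, quantile normalization and cyclic loess, and The change of Snrpg became -0.0945 and -0.0495 under the last 2. Of 22 histone chaperones 3 rose and 4 fell (13.6% and 18.2%, beside 28.0% and 25.5% of all genes), with a median of 0.00. Under equal totals the chaperone median was -0.33 and 17 were lower, and without IL-33 replicate 1 or PBS replicates 1 or 2 there were 2 falls. Asf1b and Chaf1b, chaperones of newly made H3 and H4, rose by 0.64 and 0.50, with calls lost at equal totals, and Supt6 and Atrx fell by 0.43 and 0.55.

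**Figure D5:**
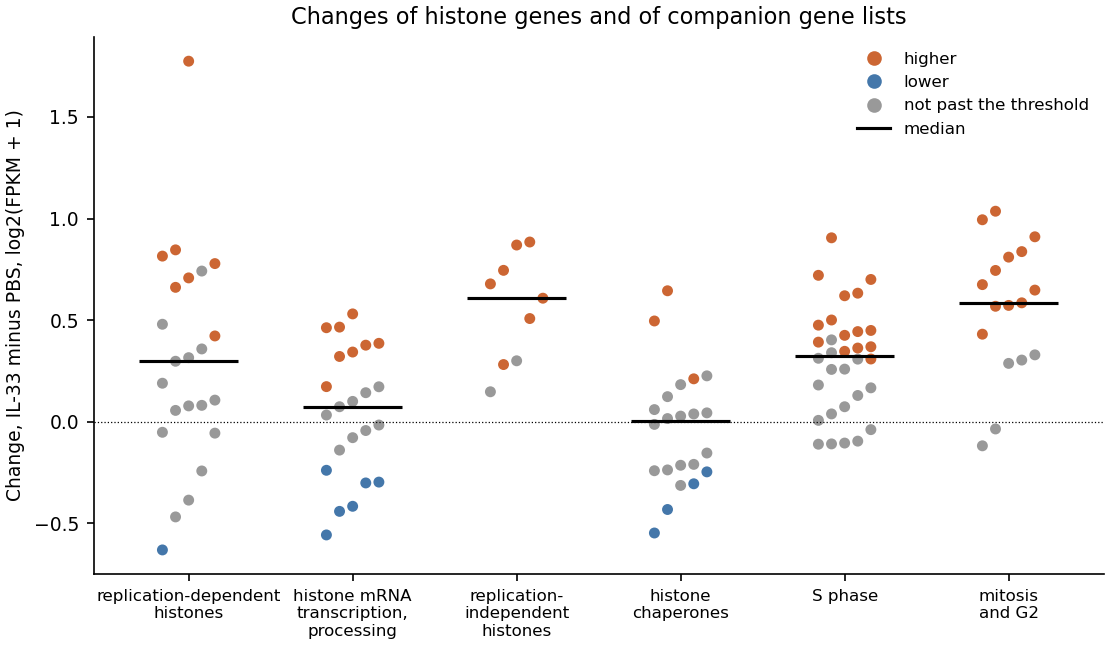
Change of every tested gene on the log2(FPKM + 1) scale, IL-33 minus PBS, in the replication-dependent histones and in 5 companion lists, with lines at the medians. The median is 0.30 for the histones, 0.61 for the replication-independent histones, 0.33 for S phase and 0.59 for mitosis genes, and near 0 for the processing genes and chaperones.

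Markers of several other cell types moved between the groups as well, and in bulk samples fewer cells of a type and less RNA per cell cannot be told apart. Plasma cell markers were higher in 7 of 8 tested cases, with a summed level of 444 to 481 FPKM with IL-33 and 155 to 210 FPKM with PBS. Eosinophil markers were higher in 6 of 8 (870 to 1238 against 216 to 310 FPKM), neutrophil markers in 7 of 8 (1218 to 2455 against 479 to 791 FPKM) and mast cell or basophil markers in 4 of 5 (19.2 to 32.5 against 6.02 to 8.60 FPKM). T cell markers were lower in 10 of 11 (151 to 164 against 303 to 545 FPKM) and NK cell markers in all 10 (228 to 362 against 592 to 762 FPKM). Other marker lists were nearer to the shares of all tested genes (28.0% higher and 25.5% lower). Macrophage and monocyte markers were higher in 4 of 11 (36.4%) and lower in 1 (3969 to 5169 against 2572 to 4368 FPKM), and B cell markers lower in 2 of 9 (22.2%) with sums of 382 to 520 against 346 to 847 FPKM. Erythroid markers were higher in 2 of 5 tested, with sums of 64.8 to 302 and 80.7 to 514 FPKM. None of the listed markers found in the tables was at 0 throughout. The part of these cells in the histone values was not tested.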

How the data were processed

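The authors deposited 1 table of FPKM per library. The submitters' processing notes list Cuffnorm 2.2.1, TopHat2 2.0.13, SAMtools 0.1.19 and Bowtie2 2.2.3, with the build mm10. Annotation, strand setting and treatment of multiply matching reads are not stated there. FPKM hold no counts, so the scaling factor of a library is known only relative to 1 library, from steps between values of at most 0.3 FPKM.

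Values were analysed as log2(FPKM + 1), which understates changes of low genes. Genes at 1 FPKM or more in at least 3 libraries were tested with limma 3.58.1 in R 4.3.3 (variance trend, no block, two-sided), which was tested on simulated data. Python 3.11.15 (numpy 2.4.6, pandas 2.3.3, matplotlib 3.10.9) was used for the rest. Members and gene lists were chosen with earlier results of these data known. Genes named were the called members, the 8 most abundant members and up to 4 genes of each companion list by smallest p. Slbp, Npat, Mki67 and Pcna were also named. Other members were named after their values were seen. Markers are given as lists, apart from the dendritic cell markers named with their means. The octamer and H1 box were added to the motifs after the values were seen. All 68 members matched GENCODE M21 by symbol, and 1 transcript each was used; words of 50 bases were compared with all annotated transcripts on both strands. The shared replicate numbers were not treated as pairs.

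Alternatives were pseudocounts of 0.1 and 0.5, no filter or 5 FPKM, equal totals, quantile and cyclic loess normalization, no variance trend, the replicate number as a block, and leaving out each library.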

Additional observations from a re-analysis of the deposited data

How the results depend on the processing

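Under 15 alternatives, 138 of 146 values of the 10 named members stayed on the same side of the threshold. The other 8, for Hist1h2bb, Hist1h2bg and Hist3h2a, kept the direction but lost the call. Hist2h2be, which did not pass, changed direction, from 0.11 as deposited to -0.15 with equal totals. The 7 members called higher became 11 with no filter and 4 of 6 with a filter of 5 FPKM, where more and fewer members were tested, and 6 to 7 with 1 library left out. The 1 called lower became 2 with equal totals and 0 to 2 with 1 library left out (0 without PBS replicate 3, 2 without IL-33 replicate 2, and Hist1h4b in place of Hist1h2bg without PBS replicate 1). Their median change ran from 0.17 to 0.39 with 1 library left out. The fold of the summed members was 1.42 with equal totals and 1.71 to 1.91 with 1 library left out.

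With equal totals 1280 of all tested genes were higher and 5840 lower, against 3230 and 2939 as deposited. Higher and lower genes were then 0 and 12 for histone mRNA processing, 4 and 1 for replication-independent histones, 0 and 17 for chaperones, 3 and 5 for S phase and 4 and 0 for mitosis. With quantile normalization 3 processing genes were higher, and 1 replication-independent histone and 7 chaperones lower; with cyclic loess these were 4, 2 and 7. The change of Snrpg became -0.0945 and -0.0495 under those normalizations. With 1 library left out the counts were 5 to 7 processing genes higher and 4 to 6 lower, 2 to 4 chaperones higher and 2 to 6 lower, 10 to 20 S phase and 6 to 15 mitosis genes higher. The cause was not tested.

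Same-numbered libraries correlated at 0.075, -0.054 and 0.089 in their deviations from the group means, and 2 of 3 IL-33 libraries were closest to their own number. With the replicate block 8 members were higher and 1 lower, and 2 chaperones were lower. Depth limits the low members, where 1 fragment is a median of 0.262 FPKM.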
